A study of Homo sapiens with 4 samples.

Results

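The chains of the collagens, the laminins and the integrins, with the small proteoglycans lumican, decorin and biglycan, were followed in PC3 cells, an established human line of metastatic prostate adenocarcinoma. The genes were taken by name (COL, LAM and ITG chain symbols plus LUM, DCN and BGN) from a table of 43622 genes, and 58 of the 84 that matched averaged 0.1 TPM or more across all 12 libraries. TPM is a transcript level scaled for transcript length and for the total of each library, so levels can be set side by side between genes. The 58 were 29 of 44 collagen chains, 10 of 12 laminin chains, 17 of 25 integrin chains and 2 of 3 proteoglycans, LUM and BGN. This mean was the only measured value in the choice, and it lay at 0.128 TPM for COL11A2, just inside, and at 0.0785 TPM for COL4A4, just outside. Of the 58 genes, 9 had a condition mean below 0.1 TPM, and 4 of these (COL4A3, COL11A1, COL15A1 and LAMB4) were below it in both conditions without drug, so they entered through the drug-treated libraries. A rise of these 4 with the drug was thus built into the choice. COL6A3 was below 0.1 TPM in both drug-treated conditions (means of 0.0612 TPM in MLN and 0.0762 TPM in Both). It entered through the untreated libraries, so a fall with the drug was built into the choice.

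RNA-seq covered 4 conditions with 3 libraries each. Ctrl was PC3 with a wild-type genotype label and DMSO, the vehicle, and MLN was the same line with 1 µM MLN4924 (pevonedistat), an inhibitor of the NEDD8-activating enzyme, for 3 days. The line named PC3-shp14ARF carried a stable retroviral shRNA against p14ARF, an alternative-frame product of CDKN2A, and was selected with hygromycin. It received DMSO in shARF and 1 µM MLN4924 in Both. The series description instead gives 1 mM and calls the line a knockout, while the sample labels give 1 µM and the study's methods an shRNA, which are followed here. No line with a control hairpin is named in the sources used here, so the shRNA and the selection cannot be told apart in shARF vs Ctrl and Both vs MLN. Nothing states that the 3 libraries came from separate cultures, so p-values measure only the spread between these libraries. Library values are given in the order of their numbers in the column names, which were 1, 2 and 3 for Ctrl, 1, 2 and 5 for MLN, 1, 3 and 5 for shARF, and 2, 3 and 4 for Both.

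Collagens are built from 3 alpha chains wound into a triple helix, and the chains that pair with each other fix the type: fibrillar types bear tension, type IV forms the sheet of the basement membrane, and type VI makes beaded filaments around cells. Laminins are heterotrimers of an alpha, a beta and a gamma chain and are the other main network of the basement membrane. Integrins are alpha-beta heterodimers that anchor cells to these proteins and signal from them, and lumican, decorin and biglycan bind collagen fibrils and limit their width. Since these proteins work as fixed combinations of chains, partner chains are described together.

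CDKN2A, whose transcripts include that of p14ARF, was at 190.1, 183 and 177 TPM (Ctrl), 100.4, 133 and 119 TPM (MLN), 58.2, 58.7 and 60.9 TPM (shARF) and 47.2, 41.2 and 54 TPM (Both). It fell in shARF vs Ctrl (-1.63 ± 0.035, adjusted p = 2.24e-05). Libraries of one condition correlated at 0.975 or more and libraries of different conditions at 0.959 or less, and mitochondrial genes took 6.04 to 13.2% of the TPM. Of 5 epithelial markers, all 5 had a mean of at least 1 TPM, while KLK3, a prostate luminal marker, was at 0 in all 12 libraries. Of 7 fibroblast markers, 2 reached a mean of 1 TPM (PDGFRA and ACTA2), and their summed level was 11 to 13 TPM (Ctrl), 4.47 to 4.81 TPM (MLN), 2.39 to 2.74 TPM (shARF) and 1.32 to 1.89 TPM (Both), with THY1 and TCF21 at 0 in every library outside MLN. Of 5 endothelial markers, 2 reached a mean of 1 TPM (KDR and PECAM1), and their sum was 114 to 124 TPM (Ctrl), 15.5 to 20.7 TPM (MLN), 193 to 195 TPM (shARF) and 14.2 to 17.2 TPM (Both), with VWF at most 0.0301 TPM. Of 5 leukocyte markers only LYZ reached a mean of 1 TPM, and their sum was 36 to 50.6 TPM (Ctrl), 5.71 to 8.06 TPM (MLN), 41.3 to 49.8 TPM (shARF) and 5.73 to 8.1 TPM (Both). The part of these moving markers in the results below was not tested.

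The collagen IV genes are arranged as head-to-head pairs, in which the start sites of 2 chains face each other on opposite strands, and this arrangement can be set beside their levels below. In the RefSeq annotation of GRCh38.p14 the start sites of COL4A1 and COL4A2 were 126 bases apart, those of COL4A6 and COL4A5 379 bases, and those of COL4A4 and COL4A3 418 bases. The bases between COL4A1 and COL4A2 (chr13:110307158-110307283, plus strand) and the 250 bases upstream of COL4A5 (chrX:108439588-108439837, plus strand), COL4A6 (chrX:108439459-108439708, minus strand) and COL4A3 (chr2:227164374-227164623, plus strand) are shown 5′ to 3′, with capitals for CCAAT and for GGGCGG on either strand:
COL4A1-COL4A2: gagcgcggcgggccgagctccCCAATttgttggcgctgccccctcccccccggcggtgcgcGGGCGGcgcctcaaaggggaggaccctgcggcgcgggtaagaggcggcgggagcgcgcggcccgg
COL4A5: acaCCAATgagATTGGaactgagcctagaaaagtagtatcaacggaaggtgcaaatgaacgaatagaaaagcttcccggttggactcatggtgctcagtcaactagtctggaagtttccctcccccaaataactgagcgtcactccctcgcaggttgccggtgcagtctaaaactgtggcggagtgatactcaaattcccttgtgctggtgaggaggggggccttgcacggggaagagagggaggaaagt
COL4A6: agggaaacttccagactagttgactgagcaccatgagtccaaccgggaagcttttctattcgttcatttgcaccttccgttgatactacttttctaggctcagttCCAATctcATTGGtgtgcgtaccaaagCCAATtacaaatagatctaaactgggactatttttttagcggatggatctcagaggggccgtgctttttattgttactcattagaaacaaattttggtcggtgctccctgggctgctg
COL4A3: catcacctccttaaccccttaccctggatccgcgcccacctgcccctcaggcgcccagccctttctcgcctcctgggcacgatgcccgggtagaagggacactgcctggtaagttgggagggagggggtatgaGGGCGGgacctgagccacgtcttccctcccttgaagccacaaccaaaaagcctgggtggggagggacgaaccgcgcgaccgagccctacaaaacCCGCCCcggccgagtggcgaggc
The COL4A5 and COL4A6 stretches share 121 bases, read from opposite strands. CCAAT occurred 2 times upstream of COL4A5 and 3 times upstream of COL4A6, and 32% of 35116 RefSeq windows of this length held it. The matches of COL4A5 lie in the shared bases and are counted again among those of COL4A6. GGGCGG occurred 2 times upstream of COL4A3, against 42.6% of windows, and each of the pair was found 1 time between COL4A1 and COL4A2, where windows of 126 bases held CCAAT in 21.1% and GGGCGG in 34.6%. TATAAA, searched on both strands and held by 10.7% of windows of 250 bases, was in none of the 4 stretches. Matches are a description of these letters.

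The first question was how the drug moved matrix and adhesion genes in each line. A gene was called where limma on log2(TPM + 0.1) gave an adjusted p below 0.05 over 19932 genes, and fold changes are on this scale, ± their standard error, which understates the change of low genes. In MLN vs Ctrl, 17 of the 58 genes rose and 33 fell, while 32.2% of all genes tested rose and 29.4% fell. In Both vs shARF, 18 rose and 25 fell, against 28.3% and 32.8% of all genes. The median of the 58 was -0.53 in MLN vs Ctrl and -0.29 in Both vs shARF, and that of all genes tested was 0.052 and -0.038. Of the 58, 23 fell and 13 rose in both lines. The 13, like the rises of each comparison, include COL4A3, COL11A1, COL15A1 and LAMB4, which entered through the drug-treated libraries. The 23, like the falls of each comparison, include COL6A3, which entered through the untreated libraries. Another 4 fell in PC3 cells and rose in PC3-shp14ARF cells (among them COL4A6, ITGA2 and ITGB3). COL9A3 rose in PC3 cells and fell in PC3-shp14ARF cells. These pairs of calls were not counted over all genes tested, so no background share can be set beside them.

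**Figure D1:**
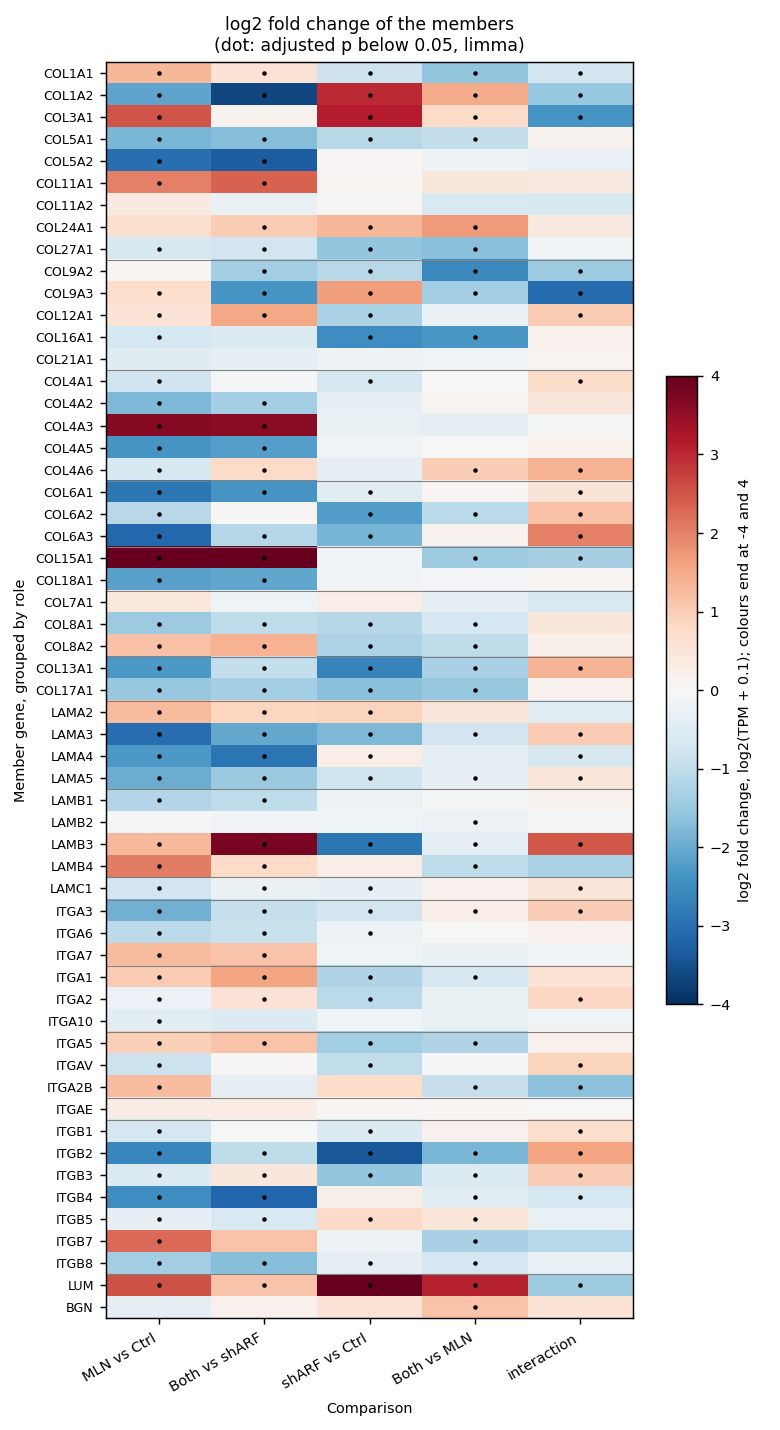
Each row is 1 of 57 of the 58 genes, grouped by role, and each column a comparison, with colour for the log2 fold change on log2(TPM + 0.1), ending at -4 and 4, and a dot for an adjusted p below 0.05. Most dots in MLN vs Ctrl are blue (32 of 49), while dots of the interaction are mostly red (17 of 27).

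The second question was how PC3-shp14ARF cells differed from PC3 cells without and with the drug. In shARF vs Ctrl, 8 of the 58 genes rose and 29 fell, against 21% and 20.4% of all genes tested. In Both vs MLN, 8 rose and 25 fell, against 11.8% and 20.6%. Without MLN replicate 2 the number that fell was 16, while that over all 19932 genes tested went from 4112 to 2613. Under a median-of-ratios scaling 11 rose and 22 fell, while the share of rises among all called genes moved from 36.4 to 51.4%. The 8 rises of shARF vs Ctrl and the 8 of Both vs MLN include COL24A1, at means of 0.0264 TPM (Ctrl) and 0.104 TPM (MLN). It reached the mean of 0.1 TPM mainly through the PC3-shp14ARF libraries (0.213 TPM in shARF and 0.536 TPM in Both). Its rise in both comparisons was thus favoured by the choice. The interaction is the drug response in PC3-shp14ARF cells minus that in PC3 cells, and it was higher for 18 of the 58 and lower for 10, against 11.2% and 17.1% of all genes. The median-of-ratios scaling gave 23 and 10, with 39.5 against 53.5% higher among all called genes. No library is common to shARF vs Ctrl and Both vs MLN, but each of them shares a group with each drug comparison. The interaction uses all 12 libraries. Fold changes of comparisons that share libraries are set side by side only.

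By summed level, the families differed in how far they moved. The collagens summed to 1091 ± 109.7 (Ctrl), 301 ± 14.3 (MLN), 719.8 ± 44.6 (shARF) and 219 ± 13.4 TPM (Both) (SD, n = 3). COL6A1 made up 38.6% of the collagen sum in Ctrl, and the 2 drug-treated conditions lay below both untreated ones in every library. The laminins summed to 624 ± 49.4 (Ctrl), 586 ± 52.7 (MLN), 327 ± 18.7 (shARF) and 482 ± 10.5 TPM (Both). LAMB3 alone was 22.9% of the laminin sum in Ctrl and 60.1% in MLN. The integrins summed to 1163 ± 43.9 (Ctrl), 733 ± 49.4 (MLN), 823 ± 19.7 (shARF) and 710.2 ± 53.5 TPM (Both), with ITGB1, the common beta partner, at 49.2 to 58.3% of the sum in every condition. The proteoglycans summed to 1.21 ± 0.367 (Ctrl), 2.19 ± 0.222 (MLN), 6.93 ± 1.02 (shARF) and 13.7 ± 1.46 TPM (Both), the only family whose highest sum was in Both. By condition mean, 29 of the 58 genes peaked in Ctrl, while MLN held the highest mean of 15 genes, shARF of 6 and Both of 8. For 15 the highest mean was at least 10 times the lowest.

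**Figure D2:**
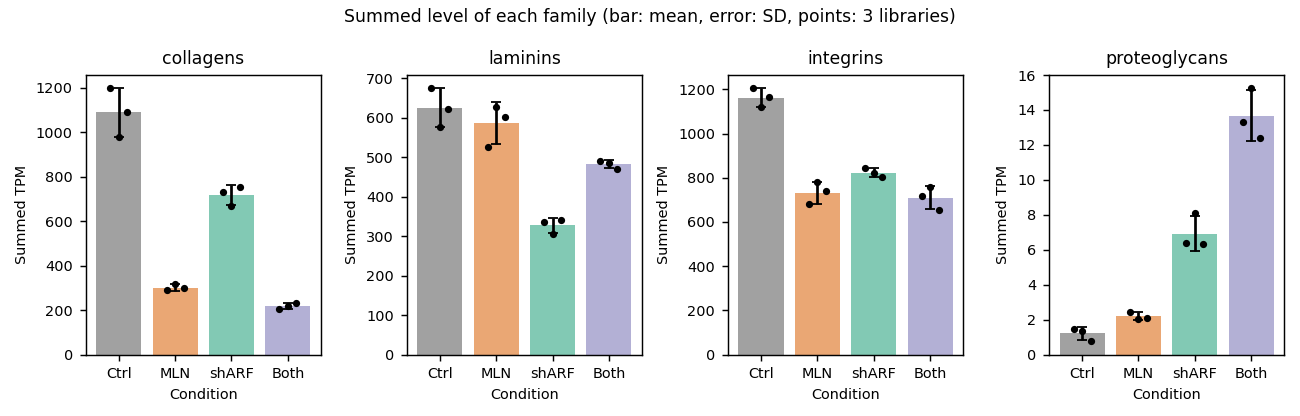
Summed TPM of each family (y axis, from 0) in the 4 conditions (x axis), with the mean as a bar, the SD as the error and the 3 libraries as points. The collagens sum to 1091 TPM in Ctrl and 219 TPM in Both, and the proteoglycans to 1.21 and 13.7 TPM.

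Among the fibrillar collagens, the partner chains of type I moved apart. COL1A2 (chr7:94394895-94431227, GENCODE release 44 on GRCh38, as for the positions below), the alpha2(I) chain, was at 7.17, 6.29 and 6.73 TPM (Ctrl), 1.4, 1.51 and 1.49 TPM (MLN), 55, 49.3 and 59.1 TPM (shARF) and 4.12, 4.25 and 4.41 TPM (Both). The 4 conditions did not overlap, with shARF highest and MLN lowest. It rose in shARF vs Ctrl (3.0 ± 0.085, adjusted p = 4.84e-05). It fell in MLN vs Ctrl (-2.12 ± 0.10, adjusted p = 2.08e-05) and in Both vs shARF (-3.64 ± 0.077, adjusted p = 1.66e-06). COL1A1 (chr17:50184101-50201632), the alpha1(I) chain of which type I collagen holds a pair, was at 8.21, 6.54 and 7.07 TPM (Ctrl), 19.7, 17.9 and 17 TPM (MLN), 3.96, 3.56 and 4.61 TPM (shARF) and 6.21, 5.58 and 6.44 TPM (Both). It moved against its partner in each of these comparisons. It fell in shARF vs Ctrl (-0.83 ± 0.13, adjusted p = 0.00653) and rose in MLN vs Ctrl (1.32 ± 0.11, adjusted p = 0.000124) and Both vs shARF (0.58 ± 0.12, adjusted p = 0.00699). The ratio of COL1A1 to COL1A2 in TPM was 1.08 ± 0.058 (Ctrl), 12.4 ± 1.41 (MLN), 0.0741 ± 0.00338 (shARF) and 1.43 ± 0.10 (Both). The drug response of both was lower in PC3-shp14ARF cells than in PC3 cells (interaction -0.73 ± 0.16, adjusted p = 0.00576 for COL1A1 and -1.52 ± 0.13, adjusted p = 5.84e-06 for COL1A2).

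COL3A1 (chr2:188974373-189012746), the chain of the type III homotrimer found with type I in loose tissue, was at 0.711, 0.461 and 0.401 TPM (Ctrl), 2.9, 3.73 and 3.52 TPM (MLN), 4.53, 5.54 and 5.78 TPM (shARF) and 5.78, 5.66 and 5.92 TPM (Both). Ctrl lay below every other library, and shARF and Both overlapped. It rose in shARF vs Ctrl (3.13 ± 0.23, adjusted p = 0.000514) and in MLN vs Ctrl (2.50 ± 0.23, adjusted p = 0.000213), while Both vs shARF gave 0.14 ± 0.11, adjusted p = 0.326. The difference between both drug responses was -2.37 ± 0.25, adjusted p = 4.05e-05. COL5A2 (chr2:189031898-189225312), which starts fibrils and lies next to COL3A1 on chromosome 2, was at 160.3, 129 and 151 TPM (Ctrl), 17.5, 16.9 and 19 TPM (MLN), 154, 143 and 162 TPM (shARF) and 13.9, 16.7 and 15.7 TPM (Both). Here the 2 untreated conditions overlapped and the 2 treated ones were lower in every library. It fell 8.24-fold in MLN vs Ctrl (-3.03 ± 0.093, adjusted p = 5.82e-06) and likewise in Both vs shARF (-3.30 ± 0.082, adjusted p = 2.3e-06), with shARF vs Ctrl at 0.062 ± 0.097, adjusted p = 0.651. Its partner COL5A1 had means of 11.8 (Ctrl), 3.19 (MLN), 5.4 (shARF) and 1.58 TPM (Both) and fell in each of the 4 pairwise comparisons, by 1.84 in MLN vs Ctrl, by 1.70 in Both vs shARF, by 1.11 in shARF vs Ctrl and by 0.96 in Both vs MLN on the log2 scale.

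**Figure D3:**
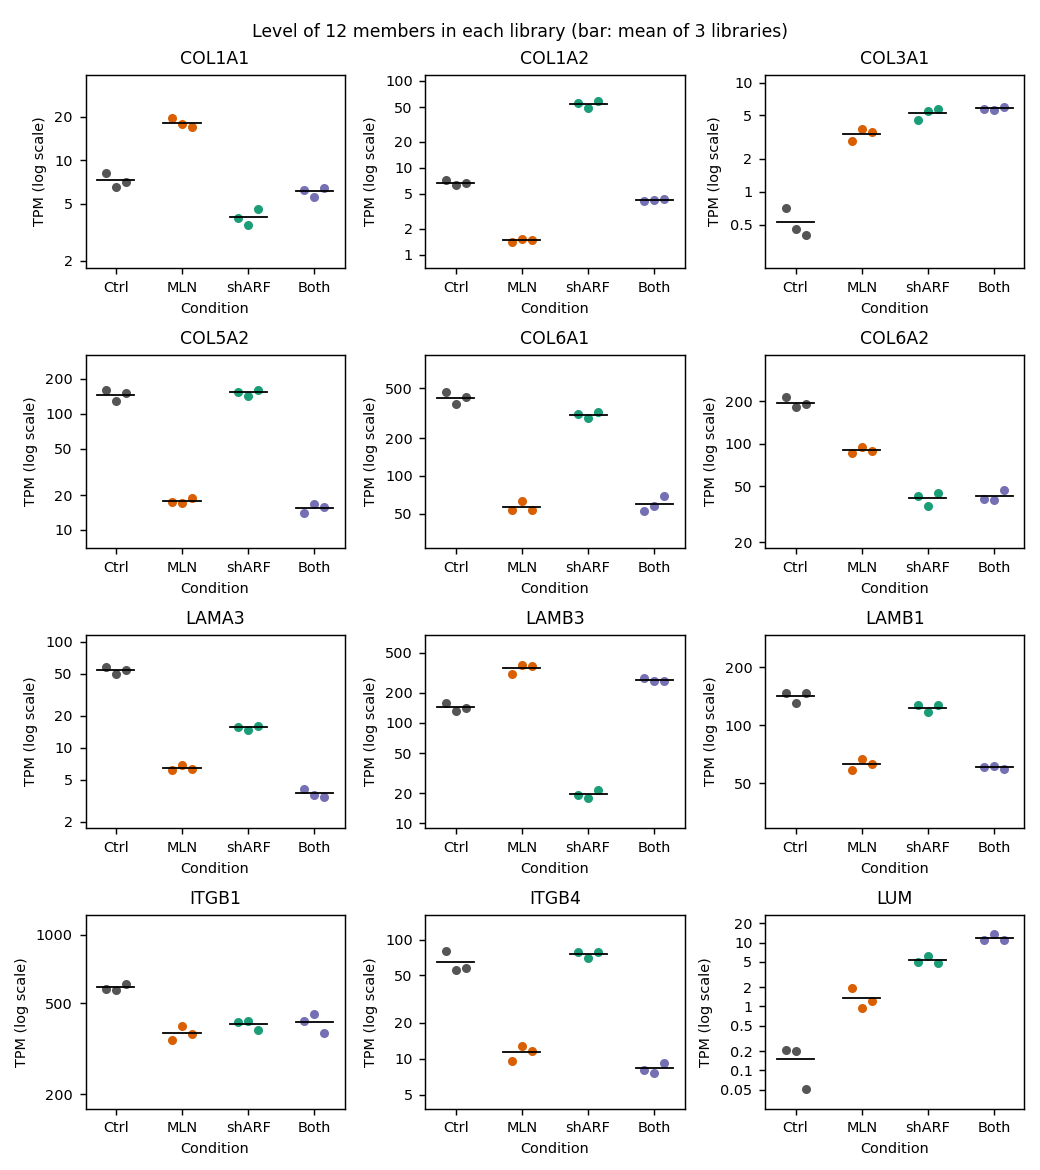
TPM on log axes in the 12 libraries for 12 of the genes, by condition, with a bar for the mean of 3. COL1A1 and COL1A2 move in opposite directions, LAMB3 is lowest in shARF at 17.8 to 21.3 TPM, and LUM steps up from Ctrl through MLN and shARF to Both.

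The other 4 fibrillar chains had means of at most 4.29 TPM in any condition. COL27A1, a chain of cartilage and epithelium, had means of 4.29 (Ctrl), 2.68 (MLN), 1.41 (shARF) and 0.788 TPM (Both) and fell in all 4 pairwise comparisons, down to -1.66 ± 0.18, adjusted p = 0.0019 in Both vs MLN. COL11A1 rose with the drug in both lines (2.01 ± 0.25 and 2.36 ± 0.24) but stayed at or below 0.624 TPM, and COL24A1 was at most 0.626 TPM, in Both. For COL11A1, which entered through the drug-treated libraries, a rise was built into the choice. COL11A2 passed the test in no comparison.

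Fibril-associated collagens sit on the surface of fibrils and do not form them alone. COL9A3 (chr20:62816244-62841159), a type IX chain, was at 1.65, 1.89 and 1.95 TPM (Ctrl), 3.05, 3.08 and 3.06 TPM (MLN), 6.65, 5.92 and 5.62 TPM (shARF) and 1.08, 0.817 and 1.48 TPM (Both). In PC3 cells it rose with the drug (0.72 ± 0.12, adjusted p = 0.00244), and in PC3-shp14ARF cells, where it began higher, it fell (-2.36 ± 0.22, adjusted p = 0.00022), which gave the lowest interaction of the 58 genes (-3.08 ± 0.25, adjusted p = 5.2e-06). Its partner COL9A2 was at 3.16, 2.92 and 3.22 TPM (Ctrl), 2.77, 3.8 and 3.38 TPM (MLN), 1.06, 1.5 and 1.61 TPM (shARF) and 0.433, 0.622 and 0.387 TPM (Both). COL9A2 was lower in Both than in any other condition, in every library, and fell in Both vs MLN (-2.57 ± 0.22, adjusted p = 0.00101), while MLN vs Ctrl gave 0.085 ± 0.14, adjusted p = 0.636. So the type IX pair differed in shARF vs Ctrl, with 1.67 ± 0.11 for COL9A3 and -1.12 ± 0.18 for COL9A2.

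COL12A1, which bridges fibrils to their surroundings, had means of 11.6 (Ctrl), 16.8 (MLN), 4.76 (shARF) and 14 TPM (Both). It rose with the drug in both lines, by 0.53 ± 0.084 (MLN vs Ctrl) and 1.54 ± 0.13 (Both vs shARF; interaction 1.01 ± 0.16, adjusted p = 0.000558). COL16A1 was at 3.93, 2.7 and 3.85 TPM (Ctrl), 1.89, 2.45 and 1.94 TPM (MLN), 0.594, 0.402 and 0.634 TPM (shARF) and 0.339, 0.377 and 0.299 TPM (Both). Libraries of the PC3 and PC3-shp14ARF lines did not overlap, and it fell in shARF vs Ctrl (-2.48 ± 0.23, adjusted p = 0.00115) and Both vs MLN (-2.32 ± 0.18, adjusted p = 0.000803). Its drug response in PC3 cells (-0.70 ± 0.19, adjusted p = 0.0207) lost the call without Ctrl replicate 1 or 3 or MLN replicate 1 or 5, where the adjusted p reached 0.0734. COL21A1 was at most 0.556 TPM and passed the test in no comparison.

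In collagen IV, 4 of the 5 tested chains fell and 1 rose in MLN vs Ctrl, against 29.4% and 32.2% of all genes tested. In Both vs shARF 2 fell and 2 rose, against 32.8% and 28.3%. The rises of each comparison include COL4A3, which entered through the drug-treated libraries. COL4A1 and COL4A2, the chains of the ubiquitous basement membrane trimer, had Ctrl means of 21.8 and 45 TPM. COL4A2 was at 50.9, 39.1 and 45 TPM (Ctrl), 11, 14.9 and 13.2 TPM (MLN), 36.8, 33.1 and 36.1 TPM (shARF) and 12.8, 14.8 and 14 TPM (Both) and fell with the drug in both lines (-1.78 ± 0.14, adjusted p = 0.000124 and -1.35 ± 0.072, adjusted p = 2.77e-05). COL4A1 was at 23.8, 19.8 and 21.8 TPM (Ctrl), 11.9, 13.8 and 11.5 TPM (MLN), 14.3, 12.8 and 12.7 TPM (shARF) and 12.6, 13.1 and 12 TPM (Both), fell in MLN vs Ctrl (-0.81 ± 0.10, adjusted p = 0.000763) and gave -0.075 ± 0.067, adjusted p = 0.376 in Both vs shARF. The ratio of COL4A2 to COL4A1 was 2.06 ± 0.082 (Ctrl), 1.05 ± 0.114 (MLN), 2.67 ± 0.153 (shARF) and 1.1 ± 0.080 (Both), so both untreated conditions were above both treated ones.

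COL4A5, the X-linked chain that pairs with COL4A6 or with COL4A3 and COL4A4, was at 39.5, 33.1 and 39.4 TPM (Ctrl), 7.33, 7.81 and 6.66 TPM (MLN), 35.5, 31.7 and 33.6 TPM (shARF) and 6.65, 7.2 and 7.76 TPM (Both). It fell in MLN vs Ctrl (-2.34 ± 0.098, adjusted p = 1.28e-05) and Both vs shARF (-2.21 ± 0.076, adjusted p = 6.49e-06), and the treated libraries overlapped. COL4A6, which faces it, was at 9.33, 6.78 and 8.04 TPM (Ctrl), 5.45, 4.84 and 5.13 TPM (MLN), 6.24, 5.93 and 5.95 TPM (shARF) and 10.2, 11.2 and 9.41 TPM (Both). It fell in MLN vs Ctrl (-0.63 ± 0.13, adjusted p = 0.00694), rose in Both vs shARF (0.75 ± 0.083, adjusted p = 0.000461), and was higher in Both than in MLN (0.98 ± 0.096, adjusted p = 0.00146). Its interaction was 1.38 ± 0.16, adjusted p = 7.63e-05. The ratio of COL4A6 to COL4A5 was 0.215 ± 0.0185 (Ctrl), 0.712 ± 0.0804 (MLN), 0.18 ± 0.00615 (shARF) and 1.44 ± 0.193 (Both). RefSeq also gives COL4A6 a second start site 1036 bases downstream of the facing one, and gene-level TPM does not separate them.

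COL4A3 (chr2:227164624-227314792), a chain of the kidney and lung type IV trimer, was at 0.0343, 0.0328 and 0.0666 TPM (Ctrl), 1.68, 1.61 and 1.88 TPM (MLN), 0.0173, 0 and 0.0348 TPM (shARF) and 1.51, 1.28 and 1.17 TPM (Both). It was near 0 without drug in both lines, and rose in MLN vs Ctrl (3.67 ± 0.20, adjusted p = 3.2e-05) and Both vs shARF (3.60 ± 0.21, adjusted p = 3.87e-05). COL4A3 entered through the drug-treated libraries, so a rise was built into the choice. COL4A4, which faces it and lay below the mean of 0.1 TPM, was at 0.0632, 0.0605 and 0.0921 TPM (Ctrl), 0.239, 0.182 and 0.213 TPM (MLN), 0.0159, 0.0157 and 0.016 TPM (shARF) and 0, 0.0153 and 0.0295 TPM (Both). It was highest in MLN, and no test was made of it.

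**Figure D4:**
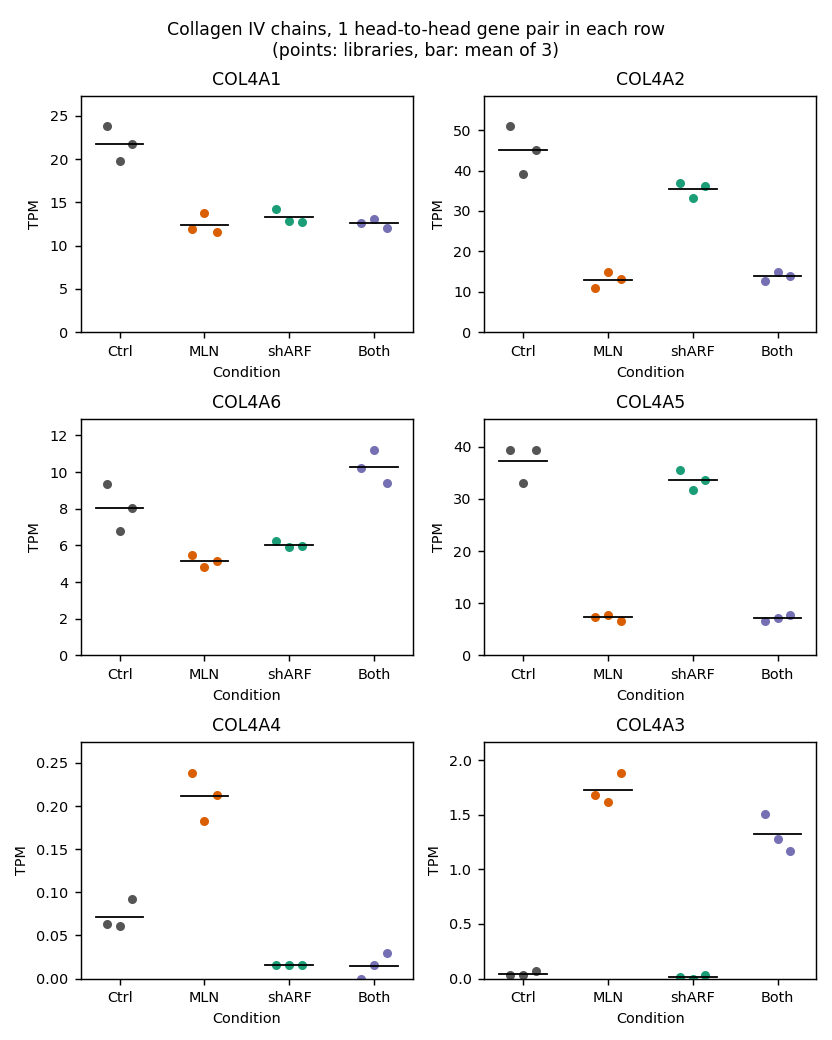
TPM of the 6 collagen IV chains by condition, 1 head-to-head pair in each row, with points for libraries and a bar for the mean; axes start at 0 and differ between panels. COL4A5 is at or below 7.81 TPM in both treated conditions, while COL4A6 in Both is at or above 9.41 TPM.

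By the mean of the 12 libraries, COL6A1 and COL6A2 of type VI were the most abundant collagen chains. COL6A1 (chr21:45981770-46005050) was at 465, 373 and 425 TPM (Ctrl), 53.4, 63.4 and 53.7 TPM (MLN), 312, 289 and 325 TPM (shARF) and 52.8, 57.2 and 69.4 TPM (Both). Treated libraries were all below untreated ones, and it fell 7.41-fold in MLN vs Ctrl (-2.89 ± 0.11, adjusted p = 9.09e-06) and fell in Both vs shARF (-2.37 ± 0.11, adjusted p = 1.6e-05). COL6A2 (chr21:46098112-46132848), its neighbour on chromosome 21, was at 214, 182 and 192 TPM (Ctrl), 85.8, 95.4 and 88.8 TPM (MLN), 43, 36.4 and 44.7 TPM (shARF) and 40.9, 40 and 47.4 TPM (Both). In PC3-shp14ARF cells it was low already without drug (-2.24 ± 0.10, adjusted p = 0.000144 in shARF vs Ctrl). Both vs shARF gave 0.051 ± 0.10, adjusted p = 0.697, and the interaction was 1.17 ± 0.13, adjusted p = 5.77e-05. The ratio of COL6A2 to COL6A1 was 0.466 ± 0.0183 (Ctrl), 1.59 ± 0.0763 (MLN), 0.134 ± 0.00678 (shARF) and 0.719 ± 0.0484 (Both). COL6A3, the third chain of the trimer, was far lower, at 1.35, 1.26 and 1.31 TPM (Ctrl), 0.0301, 0.0689 and 0.0845 TPM (MLN), 0.241, 0.301 and 0.315 TPM (shARF) and 0.0992, 0.0774 and 0.0521 TPM (Both). COL6A3 fell in MLN vs Ctrl (-3.14 ± 0.22, adjusted p = 7.16e-05), in shARF vs Ctrl (-1.87 ± 0.13) and in Both vs shARF (-1.13 ± 0.21). As COL6A3 entered through the untreated libraries, a fall with the drug was built into the choice. For COL6A1 the fall in shARF vs Ctrl (-0.45 ± 0.094, adjusted p = 0.0161) lost the call without Ctrl replicate 3 or shARF replicate 1 or 3 (adjusted p up to 0.0578). Its interaction (0.51 ± 0.16, adjusted p = 0.0274) lost it without Ctrl replicate 1 or 3, MLN replicate 1 or 5, shARF replicate 1 or 3, or Both replicate 4 (up to 0.0649).

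The multiplexins, COL15A1 and COL18A1, are basement membrane proteins with a releasable C-terminal endostatin domain, and they moved apart. COL15A1 (chr9:98943179-99070792) was at 0.0235, 0 and 0.0228 TPM (Ctrl), 4.41, 4.47 and 4.69 TPM (MLN), 0.0237, 0 and 0 TPM (shARF) and 1.64, 1.83 and 1.4 TPM (Both). It was at or near 0 without drug. It had the largest rise of the 58 genes in both drug comparisons (5.33 ± 0.18, adjusted p = 7.5e-06 and 4.0 ± 0.21, adjusted p = 2.34e-05). As it entered through the drug-treated libraries, a rise was built into the choice. It was lower in Both than in MLN (-1.43 ± 0.13, adjusted p = 0.00123). COL18A1 (chr21:45405165-45513720) had means of 19.6 (Ctrl), 4.28 (MLN), 18 (shARF) and 4.19 TPM (Both) and fell in both lines (-2.16 ± 0.13, adjusted p = 4.23e-05 and -2.08 ± 0.15, adjusted p = 8.48e-05). Its interaction was 0.082 ± 0.20, adjusted p = 0.806.

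The transmembrane collagens were lower in every condition than in Ctrl. COL13A1 (chr10:69801880-69964275), found at cell-matrix junctions, was at 142, 121 and 123 TPM (Ctrl), 24.7, 25.9 and 26.8 TPM (MLN), 21.8, 19.4 and 19.6 TPM (shARF) and 9.93, 10.3 and 10.8 TPM (Both). Its 4 conditions did not overlap. It fell in shARF vs Ctrl (-2.66 ± 0.082, adjusted p = 5.79e-05) and MLN vs Ctrl (-2.31 ± 0.075, adjusted p = 6.63e-06), and also in Both vs shARF (-0.96 ± 0.067, adjusted p = 7.24e-05) and Both vs MLN (-1.31 ± 0.061, adjusted p = 0.000289). Its fall with the drug was smaller in PC3-shp14ARF cells (interaction 1.35 ± 0.10, adjusted p = 3.48e-06). COL17A1, the hemidesmosome collagen of basal epithelium, had means of 4.75 (Ctrl), 1.62 (MLN), 1.43 (shARF) and 0.504 TPM (Both) and fell in all 4. COL8A1 and COL8A2, the short-chain type VIII pair, differed in direction with the drug: COL8A1 fell in both lines (-1.47 ± 0.091 and -1.03 ± 0.15) and COL8A2 rose in both (1.18 ± 0.25 and 1.40 ± 0.26). COL7A1, the anchoring fibril chain, was at 0.851 to 1.60 TPM and passed the test in no comparison.

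LAMB3 and LAMA3, a beta and an alpha chain of epithelial laminin, moved in opposite directions with the drug. LAMB3 (chr1:209614870-209652425) was at 159, 130.3 and 139.8 TPM (Ctrl), 307, 379 and 370.1 TPM (MLN), 19, 17.8 and 21.3 TPM (shARF) and 280.1, 265 and 263 TPM (Both). Drug-treated libraries were the highest in both lines and shARF the lowest, with no overlap between conditions. LAMB3 rose 2.46-fold in MLN vs Ctrl (1.30 ± 0.11, adjusted p = 0.000157) and fell in shARF vs Ctrl (-2.88 ± 0.10, adjusted p = 7.43e-05). It rose in Both vs shARF (3.79 ± 0.073, adjusted p = 1.3e-06), which gave the highest interaction of the 58 genes (2.50 ± 0.14, adjusted p = 2.21e-07). Its fall in Both vs MLN (-0.38 ± 0.093, adjusted p = 0.0262) lost the call without MLN replicate 2 or 5 or any 1 Both library, with adjusted p up to 0.0883.

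LAMA3 (chr18:23689453-23956222) went the other way, at 58.2, 49.6 and 54.8 TPM (Ctrl), 6.13, 6.84 and 6.29 TPM (MLN), 15.7, 14.8 and 16.1 TPM (shARF) and 4.08, 3.62 and 3.47 TPM (Both). It fell 8.44-fold in MLN vs Ctrl (-3.06 ± 0.08, adjusted p = 3.67e-06), and fell in Both vs shARF (-2.04 ± 0.084, adjusted p = 1.12e-05) and shARF vs Ctrl (-1.79 ± 0.071, adjusted p = 9.58e-05). The ratio of LAMB3 to LAMA3 was 2.64 ± 0.0911 (Ctrl), 54.8 ± 4.41 (MLN), 1.24 ± 0.0689 (shARF) and 72.6 ± 3.55 (Both). In both lines the treated libraries thus held far more LAMB3 than LAMA3 transcript per length.

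The other alpha chains mostly fell with the drug. LAMA5, of the widespread laminins of adult epithelium, had means of 91.5 (Ctrl), 23.1 (MLN), 52 (shARF) and 18.4 TPM (Both) and fell in MLN vs Ctrl (-1.98 ± 0.11) and Both vs shARF (-1.49 ± 0.10). LAMA4, a chain of vessel and muscle laminins, was at 12.5, 10.9 and 12.1 TPM (Ctrl), 2.31, 2.57 and 2.05 TPM (MLN), 14.9, 13.1 and 14.7 TPM (shARF) and 1.8, 1.76 and 1.75 TPM (Both). It fell more in PC3-shp14ARF cells (-2.94 ± 0.084, adjusted p = 3.39e-06) than in PC3 cells (-2.31 ± 0.11, adjusted p = 2.16e-05). The interaction was -0.63 ± 0.15, adjusted p = 0.00769. LAMA2, the muscle chain, was at most 2.05 TPM and rose in both lines (1.27 ± 0.20 and 0.85 ± 0.21).

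Among the remaining chains, LAMB1 (chr7:107923799-108003213), the common beta chain, was at 146, 131 and 147 TPM (Ctrl), 58.1, 67 and 62.5 TPM (MLN), 126, 116 and 127 TPM (shARF) and 60.8, 61.3 and 59 TPM (Both). Treated libraries were below untreated ones. LAMB1 fell in MLN vs Ctrl (-1.18 ± 0.074, adjusted p = 4.94e-05) and Both vs shARF (-1.03 ± 0.045, adjusted p = 1.4e-05), and the interaction was 0.15 ± 0.093, adjusted p = 0.261. LAMC1, its usual gamma partner, also fell (-0.78 ± 0.075 and -0.28 ± 0.055). The ratio of LAMB1 to LAMC1 was 4.36 ± 0.299 (Ctrl), 3.3 ± 0.0752 (MLN), 4.77 ± 0.0809 (shARF) and 2.84 ± 0.0803 (Both). LAMB2 had means of 53.9 (Ctrl), 51.7 (MLN), 47.4 (shARF) and 44.1 TPM (Both). Its single call, in Both vs MLN (-0.23 ± 0.066, adjusted p = 0.0428), was lost without MLN replicate 2 or 5 or any 1 Both library (up to 0.129) and under the median-of-ratios scaling. LAMB4 was at most 0.516 TPM, in MLN. As LAMB4 entered through the drug-treated libraries, a rise was built into the choice. Its rise in Both vs shARF (0.78 ± 0.27, adjusted p = 0.0496) lost the call when 1 library was left out (up to 0.0969).

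Of the integrins that bind laminin, ITGA6 (chr2:172427354-172506459) was at 108, 99.9 and 96.7 TPM (Ctrl), 46.7, 49.5 and 49.6 TPM (MLN), 91.7, 84.7 and 89.7 TPM (shARF) and 47.9, 53.7 and 42.7 TPM (Both). Its hemidesmosome partner ITGB4 (chr17:75721328-75757818) was at 80.3, 55.8 and 57.4 TPM (Ctrl), 9.67, 12.9 and 11.8 TPM (MLN), 78.7, 69.5 and 78.4 TPM (shARF) and 8.11, 7.68 and 9.22 TPM (Both). Treated libraries were below untreated ones for both. ITGA6 fell in MLN vs Ctrl (-1.06 ± 0.056, adjusted p = 2.77e-05) and Both vs shARF (-0.89 ± 0.089, adjusted p = 0.00031). ITGB4 fell in both comparisons (-2.48 ± 0.17, adjusted p = 7.27e-05 and -3.17 ± 0.087, adjusted p = 3.14e-06). The ratio of ITGB4 to ITGA6 was 0.632 ± 0.0981 (Ctrl), 0.235 ± 0.0266 (MLN), 0.851 ± 0.0276 (shARF) and 0.176 ± 0.0371 (Both). The interaction of ITGB4 (-0.69 ± 0.20, adjusted p = 0.0211) lost the call without Ctrl replicate 2 or 3, MLN replicate 2, shARF replicate 1 or 5, or Both replicate 3 (up to 0.0558). Its fall in Both vs MLN (-0.44 ± 0.13, adjusted p = 0.0454) did so without MLN replicate 2 or 5 or any 1 Both library (up to 0.132).

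ITGA3, the other main laminin receptor of epithelium, was at 147, 122 and 126 TPM (Ctrl), 31.6, 36.4 and 36.4 TPM (MLN), 79.8, 77.8 and 80.3 TPM (shARF) and 40.9, 42.3 and 41.8 TPM (Both). It fell in MLN vs Ctrl (-1.92 ± 0.095, adjusted p = 2.16e-05) and about 1 log2 unit less in Both vs shARF (-0.93 ± 0.033, adjusted p = 6.81e-06; interaction 0.99 ± 0.11, adjusted p = 3.87e-05). ITGA7, the muscle laminin receptor, was at most 1.84 TPM and rose in both lines (1.26 ± 0.17 and 1.14 ± 0.16). So within the laminin receptors the low chain rose while the abundant ones fell.

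Of the collagen-binding alpha chains, ITGA2, the abundant one, had means of 65.2 (Ctrl), 55.3 (MLN), 30.8 (shARF) and 46.4 TPM (Both). It fell in shARF vs Ctrl (-1.08 ± 0.051, adjusted p = 0.000159) and rose in Both vs shARF (0.59 ± 0.091, adjusted p = 0.00203), and its interaction was 0.82 ± 0.11, adjusted p = 0.000272. Its small fall in MLN vs Ctrl (-0.24 ± 0.062, adjusted p = 0.0166) was lost without Ctrl replicate 1 or 3 or MLN replicate 1 or 5 (up to 0.0607). ITGA1, a low chain, was at 1.63, 1.37 and 1.51 TPM (Ctrl), 3.35, 3.14 and 3.01 TPM (MLN), 0.653, 0.594 and 0.53 TPM (shARF) and 1.89, 2.26 and 1.78 TPM (Both). It rose with the drug in both lines (1.03 ± 0.13, adjusted p = 0.000697 and 1.58 ± 0.16, adjusted p = 0.000373) and fell in shARF vs Ctrl (-1.21 ± 0.14, adjusted p = 0.00197). ITGA10 was at 0.670 to 1.51 TPM. Its call in MLN vs Ctrl (-0.42 ± 0.14, adjusted p = 0.0427) was lost without any 1 of the 6 libraries (up to 0.114).

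ITGB1 (chr10:32887273-33005792), the beta chain shared by the laminin, collagen and fibronectin receptors, was the most abundant of the 58 genes, at 579, 573 and 609.8 TPM (Ctrl), 346, 397 and 369 TPM (MLN), 415, 419 and 382 TPM (shARF) and 420.2, 449 and 372 TPM (Both). Ctrl lay above every other library and the other 3 conditions overlapped. ITGB1 fell in MLN vs Ctrl (-0.67 ± 0.069, adjusted p = 0.000338) and shARF vs Ctrl (-0.54 ± 0.05, adjusted p = 0.00108). Both vs shARF gave 0.028 ± 0.081, adjusted p = 0.794, and the interaction was 0.69 ± 0.11, adjusted p = 0.000685. ITGAV, the shared alpha chain of the vitronectin receptors, had means of 86.6 (Ctrl), 47.5 (MLN), 43.5 (shARF) and 44.6 TPM (Both), and it too was highest in Ctrl. Its interaction was 0.90 ± 0.083, adjusted p = 1.31e-05.

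The fibronectin receptor alpha chain ITGA5 was at 63.8, 51.1 and 51.4 TPM (Ctrl), 91, 118 and 113 TPM (MLN), 21.3, 22 and 20 TPM (shARF) and 49.7, 47.8 and 41.6 TPM (Both). It rose in MLN vs Ctrl (0.95 ± 0.13, adjusted p = 0.00123) and Both vs shARF (1.13 ± 0.078, adjusted p = 7.09e-05) and fell in shARF vs Ctrl (-1.38 ± 0.10, adjusted p = 0.000523). The ratio of ITGA5 to ITGB1 was 0.0946 ± 0.0137 (Ctrl), 0.289 ± 0.023 (MLN), 0.0521 ± 0.000641 (shARF) and 0.112 ± 0.00591 (Both). Of the ITGAV partners, ITGB3 had means of 12.4 (Ctrl), 8.41 (MLN), 4.14 (shARF) and 5.67 TPM (Both) and an interaction of 0.99 ± 0.16, adjusted p = 0.000642. ITGB5 was highest in shARF at 54.1 ± 3.26 TPM against 31.7 ± 3.4 TPM in Ctrl (0.77 ± 0.09, adjusted p = 0.00226). ITGB8 had means of 8.32 (Ctrl), 3.08 (MLN), 6.35 (shARF) and 1.87 TPM (Both) and fell in all 4 pairwise comparisons. ITGA2B, the platelet chain, was at most 0.706 TPM.

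**Figure D5:**
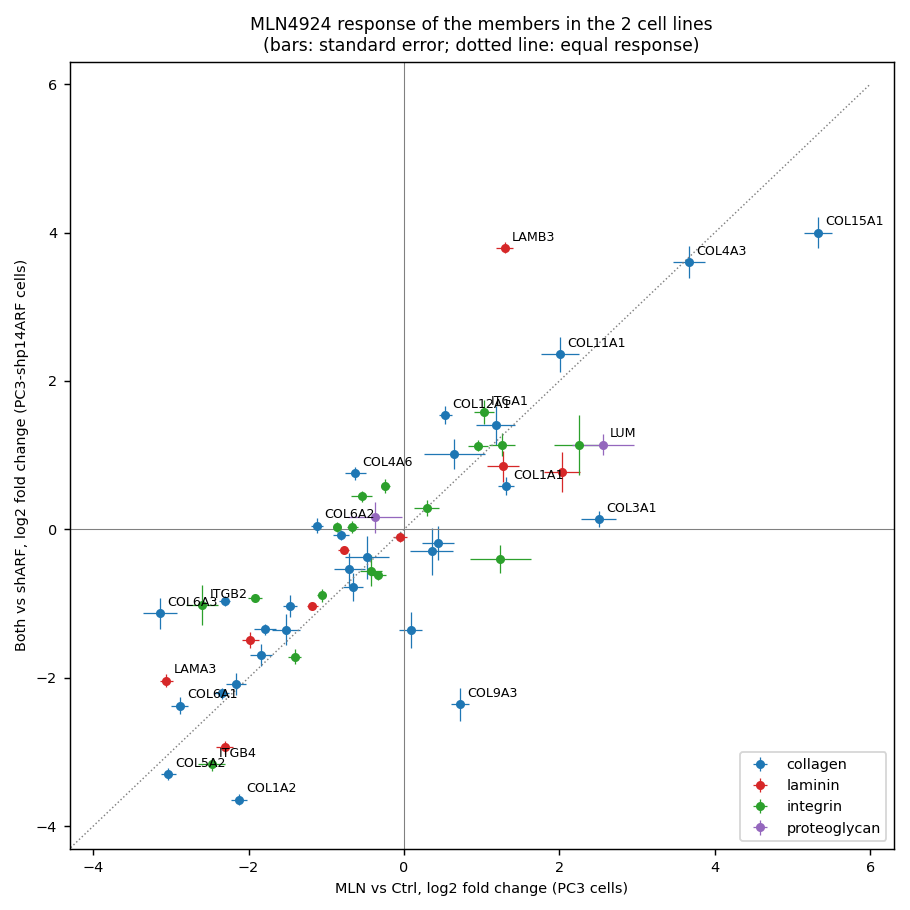
Log2 fold change on log2(TPM + 0.1) in MLN vs Ctrl (x axis, PC3 cells) against Both vs shARF (y axis, PC3-shp14ARF cells) for 57 of the 58 genes, coloured by family, with standard errors as bars and a dotted line where both responses are equal. LAMB3 lies far above the line at 1.30 and 3.79, and COL9A3 and COL3A1 lie far below it.

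ITGB2 (chr21:44885953-44931989), the beta chain of leukocyte integrins, was at 4.28, 3.57 and 3.67 TPM (Ctrl), 0.412, 0.575 and 0.688 TPM (MLN), 0.232, 0.251 and 0.35 TPM (shARF) and 0.132, 0.0894 and 0.043 TPM (Both). Ctrl stood above all other libraries. ITGB2 fell in shARF vs Ctrl (-3.39 ± 0.17, adjusted p = 0.00019), MLN vs Ctrl (-2.60 ± 0.20, adjusted p = 0.000111) and Both vs MLN (-1.81 ± 0.29, adjusted p = 0.00669). Of the leukocyte markers, LYZ was at 35.9 to 50.2 TPM (Ctrl), 5.3 to 6.99 TPM (MLN), 40.8 to 49.6 TPM (shARF) and 5.05 to 7.66 TPM (Both), so it was lower with the drug, as ITGB2 was, but not in shARF. CD14 was at most 0.797 TPM, and PTPRC and CD3E were at or below 0.322 TPM in all 12 libraries. ITGB7, another leukocyte chain, was at most 1.01 TPM, in MLN, and ITGAE, which binds E-cadherin, was at 8.83 to 15.4 TPM and passed the test in no comparison.

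LUM (chr12:91102629-91111494), lumican, was at 0.208, 0.199 and 0.0505 TPM (Ctrl), 1.96, 0.95 and 1.2 TPM (MLN), 4.97, 6.2 and 4.75 TPM (shARF) and 11, 13.5 and 10.9 TPM (Both). The 4 conditions did not overlap and Both was highest. It rose in shARF vs Ctrl (4.48 ± 0.33, adjusted p = 0.000542) and MLN vs Ctrl (2.56 ± 0.40, adjusted p = 0.002). It also rose in Both vs shARF (1.14 ± 0.14, adjusted p = 0.000694) and Both vs MLN (3.07 ± 0.26, adjusted p = 0.00104). The mean with the drug was 9.0-fold that of DMSO in PC3 cells and 2.23-fold in PC3-shp14ARF cells. The interaction on the log2 scale (-1.41 ± 0.42, adjusted p = 0.0243) lost the call without shARF replicate 3 or Both replicate 2 or 4 (up to 0.0582). It was 0.0029 (adjusted p = 0.995) at a pseudocount of 1 TPM.

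BGN, biglycan, was at 1.27, 1.16 and 0.743 TPM (Ctrl), 0.481, 1.1 and 0.861 TPM (MLN), 1.41, 1.9 and 1.55 TPM (shARF) and 2.32, 1.73 and 1.49 TPM (Both). Its single call, a rise in Both vs MLN (1.13 ± 0.32, adjusted p = 0.0418), was lost without MLN replicate 1 or 5 or any 1 Both library (up to 0.129). DCN, decorin, which lay below the mean of 0.1 TPM, was at 0.0122, 0 and 0.0118 TPM (Ctrl), 0.126, 0.0468 and 0.0235 TPM (MLN), 0.098, 0.0605 and 0.0741 TPM (shARF) and 0.0816, 0.118 and 0.102 TPM (Both). It was not tested. The mean of LUM in Both, 11.8 TPM, compared with 1.85 TPM for BGN.

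The proteins that make, surround and receive these chains were read from lists of other genes. Of 28 tested genes for collagen modification, folding and processing, 5 rose and 20 fell in MLN vs Ctrl (17.9% and 71.4%, against 32.2% and 29.4% of all genes tested), and 4 rose and 16 fell in Both vs shARF (14.3% and 57.1%, against 28.3% and 32.8%), with medians of -0.57 and -0.36. LOXL1, a crosslinking oxidase, fell from 54.6 ± 3.1 to 10.9 ± 0.98 TPM in MLN vs Ctrl (-2.31 ± 0.081, adjusted p = 8.09e-06), while PCOLCE, an enhancer of procollagen cleavage, rose (0.91 ± 0.14, adjusted p = 0.00162). In shARF vs Ctrl, 6 of the 28 rose and 13 fell (21.4% and 46.4%, against 21% and 20.4%), with LOXL2 at -1.12 ± 0.086, adjusted p = 0.000607 and the procollagen protease TLL1 at 0.84 ± 0.10, adjusted p = 0.00275.

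Of 12 other basement membrane components, 2 rose and 7 fell in MLN vs Ctrl (16.7% and 58.3%, against 32.2% and 29.4% of all genes), and 2 rose and 8 fell in Both vs shARF (16.7% and 66.7%, against 28.3% and 32.8%). HSPG2, perlecan, had means of 22.6 (Ctrl), 3.14 (MLN), 25.5 (shARF) and 3.37 TPM (Both) (-2.80 ± 0.13, adjusted p = 1.98e-05 in MLN vs Ctrl). PXDN, the peroxidase that crosslinks collagen IV, had means of 78.8 (Ctrl), 15.7 (MLN), 77.7 (shARF) and 20.8 TPM (Both) (-2.32 ± 0.086, adjusted p = 9.36e-06). FREM1 rose (3.59 ± 0.22, adjusted p = 4.23e-05). In shARF vs Ctrl 5 rose and 3 fell (41.7% and 25%, against 21% and 20.4%). SPARC, a collagen-binding glycoprotein, went from 13.6 ± 0.942 to 74 ± 2.17 TPM (2.44 ± 0.057, adjusted p = 2.87e-05) and NID1, which links laminin to collagen IV, rose (1.43 ± 0.056, adjusted p = 9.58e-05). SPARC was at 4.96 ± 0.868 TPM in Both.

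Of 13 other extracellular ligands of integrins, 7 rose and 5 fell in MLN vs Ctrl (53.8% and 38.5%, against 32.2% and 29.4% of all genes), and 2 rose and 9 fell in shARF vs Ctrl (15.4% and 69.2%, against 21% and 20.4%). FN1, fibronectin, the ligand of the ITGA5 receptor, was at 26.8, 22 and 25 TPM (Ctrl), 29.6, 33.1 and 35.9 TPM (MLN), 3.54, 3.46 and 3.35 TPM (shARF) and 25.6, 24.5 and 22.5 TPM (Both). It fell in shARF vs Ctrl (-2.80 ± 0.083, adjusted p = 5.11e-05), as did TGFBI (-2.98 ± 0.22, adjusted p = 0.000578). NPNT, nephronectin, rose (1.99 ± 0.074, adjusted p = 8.36e-05), and SPP1, osteopontin, rose in MLN vs Ctrl (3.53 ± 0.22, adjusted p = 4.56e-05). Of 4 other small leucine-rich proteoglycans tested, 2 rose and 0 fell in MLN vs Ctrl by limma, with TSKU at 0.63 ± 0.12, adjusted p = 0.00417, and 1 rose and 1 fell in shARF vs Ctrl; 32.2% and 29.4% of all genes rose and fell in the first comparison and 21% and 20.4% in the second.

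Of 28 intracellular integrin partners, 3 rose and 19 fell in MLN vs Ctrl (10.7% and 67.9%, against 32.2% and 29.4% of all genes), and 3 rose and 20 fell in Both vs shARF (10.7% and 71.4%, against 28.3% and 32.8%), with medians of -0.59 and -0.79. PTK2, focal adhesion kinase, had means of 48.7 (Ctrl), 11.5 (MLN), 45.4 (shARF) and 20.2 TPM (Both) (-2.07 ± 0.053, adjusted p = 3.59e-06 in MLN vs Ctrl). FERMT3, the kindlin that activates integrins in blood cells, rose from 0.547 ± 0.128 to 28 ± 2.61 TPM (5.45 ± 0.17, adjusted p = 5.74e-06) and was at 37.1 ± 0.70 TPM in Both. Of 7 other collagen receptors, 2 rose and 1 fell in MLN vs Ctrl (28.6% and 14.3%, against 32.2% and 29.4% of all genes) and 1 rose and 4 fell in shARF vs Ctrl (14.3% and 57.1%, against 21% and 20.4%). Among them OSCAR, a receptor of osteoclast precursors, was at 14.7, 11.9 and 11.2 TPM (Ctrl), 51.4, 59.5 and 47.5 TPM (MLN), 1.21, 1.12 and 1.07 TPM (shARF) and 43.8, 46.1 and 46.2 TPM (Both). It was lowest in shARF (-3.36 ± 0.13, adjusted p = 9.09e-05) and highest in both treated conditions. CD44 fell in MLN vs Ctrl (-0.92 ± 0.087, adjusted p = 0.00024).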

How the data were processed

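The authors mapped reads to hg38 and quantified genes on an Ensembl annotation in CLC Genomics Workbench; strandedness is not given in the sources used here, so reads of overlapping antisense genes cannot be told apart. The deposited values are TPM, which the authors did not filter, and every column sums to 1000000, so sequencing depth is unknown and no counting interval is given. Columns were assigned to conditions from the labels and the readme of the paper's supplementary table.

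From these, log2(TPM + 0.1) of the 19932 genes averaging 0.1 TPM or more was fitted in R 4.3.3 by limma 3.58.1 (lmFit, then eBayes with a trend), with Benjamini-Hochberg adjustment. Each pairwise comparison used the 6 libraries of its groups, and the interaction all 12. The fits were tested on simulated data. The chains and lists were chosen with earlier results of these data known. Genes named were LUM, DCN and BGN, the 3 with the highest mean per family, the 4 with the largest called change in each direction per comparison (mean of at least 1 TPM, no overlap), up to 2 per direction and list, and partner chains, less some genes that are not reported here but count in the totals; COL4A3, COL4A4 and the other chains given by range were added after their values were seen. Alternatives were another pseudocount (1 or 0.01), filter, scaling or variance model, 1 fit of 12 libraries, leaving out each library, and a replicate block. Same-numbered libraries did not deviate together (correlations of -0.046 to 0.0072), so numbers were not used as pairs.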

Additional observations from a re-analysis of the deposited data

Results flagged for a closer look

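For 28 of the 58 genes the MLN4924 response differed between PC3-shp14ARF and PC3 cells by the interaction term of limma, 18 higher and 10 lower, against 11.2% and 17.1% of all genes tested. Those reported here, 27, are given with their log2 difference, Both vs shARF minus MLN vs Ctrl, and adjusted p. Among the collagens the difference was higher for COL6A3 (2.01, 0.00293), COL4A6 (1.38, 7.63e-05), COL13A1 (1.35, 3.48e-06), COL6A2 (1.17, 5.77e-05), COL12A1 (1.01, 0.000558), COL4A1 (0.73, 0.00124) and COL6A1 (0.51, 0.0274). It was lower for COL9A3 (-3.08, 5.2e-06), COL3A1 (-2.37, 4.05e-05), COL1A2 (-1.52, 5.84e-06), COL9A2 (-1.44, 0.00296), COL15A1 (-1.33, 0.00994) and COL1A1 (-0.73, 0.00576). Among the laminins it was higher for LAMB3 (2.50, 2.21e-07), LAMA3 (1.02, 8.51e-05), LAMC1 (0.50, 0.00293) and LAMA5 (0.48, 0.0353) and lower for LAMA4 (-0.63, 0.00769). Among the integrins it was higher for ITGB2 (1.58, 0.00842), ITGA3 (0.99, 3.87e-05), ITGB3 (0.99, 0.000642), ITGAV (0.90, 1.31e-05), ITGA2 (0.82, 0.000272) and ITGB1 (0.69, 0.000685), and lower for ITGA2B (-1.64, 0.0252) and ITGB4 (-0.69, 0.0211). LUM was lower (-1.41, 0.0243). The calls of COL6A1, ITGA2B, ITGB4, LAMA5 and LUM were lost without single libraries, with adjusted p up to 0.0649, 0.057, 0.0558, 0.0836 and 0.0582. For ITGA2B these were Ctrl replicates 1 and 2, MLN replicates 2 and 5, shARF replicate 5 and Both replicate 2, and for LAMA5 they were Ctrl replicates 1 and 3, MLN replicates 1 and 5, shARF replicates 1 and 3 and Both replicate 4. COL15A1 lost the call at a pseudocount of 0.01 and at a filter of 1 TPM, and ITGB2 at a pseudocount of 0.01. COL6A3 entered through the untreated libraries, and its means in MLN and Both lay below the pseudocount of 0.1 TPM.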

How the results depend on the processing

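Of 146 alternative values for the counts of called genes, 140 were within 1.5 times the value reported. The exceptions were the rises in MLN vs Ctrl, 11 at a filter of 1 TPM, where 48 of the 58 genes remain, and 8 with the replicate block. At that filter 5489 of all 14663 genes tested rose. In shARF vs Ctrl the block gave 0 rises and 0 falls by limma, and likewise 0 and 0 among all 19932 genes tested. There 43 of the 58 and 7757 of all genes had an unadjusted limma p below 0.05. The others were 4 lower interactions with the block and 16 falls in Both vs MLN without MLN replicate 2. Among all genes these were 1612 and 2613, from 3416 and 4112. The block left 22 falls in MLN vs Ctrl and 16 higher interactions. Among all genes it left 3047 rises and 2661 falls in MLN vs Ctrl, from 6420 and 5863, and 1493 higher interactions, from 2229. The numbers do not mark shared samples, and Both vs shARF and Both vs MLN share only 1 number, so no block could be fitted there. Without 1 library, falls ranged from 29 to 32 in MLN vs Ctrl, 25 to 27 in Both vs shARF, 26 to 32 in shARF vs Ctrl and 16 to 24 in Both vs MLN. Among all 19932 genes these falls ranged from 5253 to 5564, 5865 to 6414, 3282 to 3734 and 2613 to 3831. Calls lost among the 58 numbered 5, 1, 5 and 11, and 5 for the interaction, and were not counted over all genes. Under median-of-ratios scaling the laminin sum in Both was 501.7 TPM and the integrin sum in shARF 801.5 TPM. The sign turned for values that passed no test: COL9A2 in MLN vs Ctrl (-0.017 to 0.20 over the libraries left out, lowest without MLN replicate 2), BGN (-0.0026 to 0.30, lowest without Both replicate 2), COL6A2 (-0.039 to 0.11, below 0 without shARF replicate 3 and, at -0.0257, without Both replicate 4) and ITGB1 (-0.033 to 0.10, below 0 without Both replicate 3 and, at -0.014, without shARF replicate 5) in Both vs shARF, COL5A2 in shARF vs Ctrl (-0.071 with the block, -0.029 to 0.13 over the libraries left out, lowest without Ctrl replicate 2), COL6A1 (-0.045 to 0.15, lowest without Both replicate 4), LAMB1 (0.044 under the scaling, -0.099 to 0.0028 over the libraries left out, highest without MLN replicate 2) and ITGA6 (0.072 under the scaling, -0.10 to 0.063, highest without Both replicate 4) in Both vs MLN, and the interactions of COL16A1 (-0.0054 to 0.33, lowest without shARF replicate 3) and COL27A1 (0.089 at a pseudocount of 1, -0.24 to 0.021, highest without Both replicate 2). It also turned for the called interaction of LUM (0.0029 at a pseudocount of 1). For these the cause was not tested.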
